A study of Mus musculus with 10 samples.

Results

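Stra8 and 9 other genes of the germline were followed in male mouse embryonic stem cells (mESCs) grown by different culture methods. The members were taken by name from the deposited table, which holds 25965 features, and all 10 were found: Stra8, Dazl, Mael, Sycp1, Sycp3, Taf7l, Slc25a31, Hormad1, Ddx4 and Rec8. Stra8 was chosen by its higher values in cells grown on gelatin, so its difference between gelatin and the other libraries is given as a description with no test. The question was whether the other 9 members followed it over the 10 libraries. Among those 9 members Rec8 followed Stra8. The remaining members were lower on gelatin, differed little, or gave a difference that rested on the choice of libraries.

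Stra8 is a regulator that starts the meiotic programme in germ cells when they receive retinoic acid, and its name comes from that response. The other members act at various stages of germ cell life. Their roles lie in the axis and synapsis of meiotic chromosomes, in the control of germ cell RNA and transposons, or in the energy supply and transcription of sperm precursors. In somatic cells genes of this kind are commonly silenced by DNA methylation of CpG-rich promoters, and in embryonic stem cells also by the repressor complex PRC1.6, which reaches them through the DNA-binding proteins MGA, MAX and E2F6. DNA methylation was not measured in these samples.

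All libraries came from C57BL/6 male mESCs in 2i medium, which holds the cells in a naive state by inhibiting 2 kinases. According to the methods of the study, 2 independent lines were derived under Keniry2022, the modified method with cells in suspension, and each was split at passage 0 (p0) and kept for 10 or 20 passages (p10 and p20) under Keniry2022 or under Mulas2019, in which cells grow attached to gelatin and which served as the standard for comparison. The 5 groups, p0, Keniry2022 p10, Keniry2022 p20, Mulas2019 p10 and Mulas2019 p20, had 2 libraries each. Mulas2019 cells were passaged less often, so Keniry2022 p20 and Mulas2019 p10 were matched in days of culture. The methods also differed in plating density and medium volume, and the effect of gelatin cannot be told apart from these. The libraries are bulk RNA, so more cells with a transcript and more transcript per cell cannot be told apart either.

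Each library held between 24053996 and 30236823 reads, of which 86.0% to 88.8% lay in features. Levels are log2 RPKM, reads scaled by exon length and library size on a log2 scale. Replicate 1 of p0 stood apart. The SD between replicates over all features tested was 0.43 at p0 and 0.16 to 0.19 in the other groups, and replicate 1 was higher than replicate 2 by a median of 0.56 for features with exons shorter than 1000 bases and lower by 0.32 (median difference -0.32) for those of 4000 bases or longer. In every group 1 library held 13 to 132 reads of 4 Y-linked genes and the other 4578 to 8140. The low one was replicate 1, except at Keniry2022 p20, where it was replicate 2. All 10 mESC markers passed the filter on low values, with Pou5f1 between 8.29 and 9.23, and their summed RPKM was 3449 to 3720 in suspension and 3102 to 3303 on gelatin. In the pooled comparison of the methods 5 of them were lower on gelatin, Fbxo15 (-0.56), Pou5f1 (-0.40), Zfp42 (-0.30), Nanog (-0.18) and Dppa5a (-0.10), and Klf4 was higher (0.40). Of all features 51.5% passed in that comparison, 25.9% lower and 25.5% higher on gelatin. The part of these markers in the results was not tested. None of 7 primitive endoderm, 7 2-cell-like and 7 fibroblast markers passed the filter on low values. Among 7 trophoblast markers 2 did, of which Eomes was 0.40 higher on gelatin (adjusted p = 0.0162). The part of other cell types in the results was not tested, and of the fibroblast genes Dcn and Postn had 0 reads in all libraries.

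The promoters of the members differ in the features that repressors of germline genes are known to use. The 250 bases before the RefSeq start of 6 members are given below, in build GRCm38.p6 and read along the strand of the gene. They show Stra8, its follower Rec8, the members that were lower on gelatin (Dazl and Slc25a31), and Mael and Sycp3 as members that fell from p0. Capitals mark TCCCGC or its reverse complement GCGGGA, a site type of E2F6, and CACGTG, the E-box of MAX and MGA.
Stra8, chr6:34920698-34920947, plus strand: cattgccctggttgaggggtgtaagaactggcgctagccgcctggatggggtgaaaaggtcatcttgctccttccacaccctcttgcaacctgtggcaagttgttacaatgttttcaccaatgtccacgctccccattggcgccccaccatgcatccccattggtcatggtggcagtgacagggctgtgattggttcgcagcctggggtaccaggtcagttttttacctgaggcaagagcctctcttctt
Rec8, chr14:55617916-55618165, plus strand: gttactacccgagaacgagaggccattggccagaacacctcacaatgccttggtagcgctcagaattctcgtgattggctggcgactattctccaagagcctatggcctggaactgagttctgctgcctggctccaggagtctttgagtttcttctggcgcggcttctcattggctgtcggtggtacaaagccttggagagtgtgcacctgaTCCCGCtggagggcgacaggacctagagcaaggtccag
Dazl, chr17:50293621-50293870, minus strand: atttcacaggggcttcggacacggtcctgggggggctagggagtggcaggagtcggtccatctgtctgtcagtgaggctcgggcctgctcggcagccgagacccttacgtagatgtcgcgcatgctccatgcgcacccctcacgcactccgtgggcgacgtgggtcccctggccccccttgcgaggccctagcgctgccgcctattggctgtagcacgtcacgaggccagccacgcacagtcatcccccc
Slc25a31, chr3:40708621-40708870, plus strand: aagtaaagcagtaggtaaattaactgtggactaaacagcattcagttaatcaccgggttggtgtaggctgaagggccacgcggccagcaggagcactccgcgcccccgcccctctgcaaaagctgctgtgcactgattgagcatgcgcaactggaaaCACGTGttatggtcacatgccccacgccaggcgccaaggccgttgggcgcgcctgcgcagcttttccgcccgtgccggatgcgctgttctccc
Mael, chr1:166238745-166238994, minus strand: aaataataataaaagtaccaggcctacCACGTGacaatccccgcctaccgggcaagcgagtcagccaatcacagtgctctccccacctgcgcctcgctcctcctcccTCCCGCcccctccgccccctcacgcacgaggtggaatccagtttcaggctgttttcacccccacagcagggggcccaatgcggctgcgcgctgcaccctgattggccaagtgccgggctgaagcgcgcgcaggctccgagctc
Sycp3, chr10:88459337-88459586, plus strand: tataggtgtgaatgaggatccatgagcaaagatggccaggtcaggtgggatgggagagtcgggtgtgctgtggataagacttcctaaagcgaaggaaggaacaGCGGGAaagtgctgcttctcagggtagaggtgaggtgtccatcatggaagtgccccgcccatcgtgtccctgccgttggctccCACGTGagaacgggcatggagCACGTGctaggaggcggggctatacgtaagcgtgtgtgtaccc

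CACGTG was present in 7 of the 10 members (Mael, Sycp1, Sycp3, Taf7l, Slc25a31, Hormad1 and Ddx4) in the window from 250 bases before to 50 bases after the start, against 7.15% of all 32851 RefSeq promoter windows. TCCCGC, counted on both strands, was present in 7 members (Mael, Sycp1, Sycp3, Slc25a31, Hormad1, Ddx4 and Rec8), against 20.0% of all windows, and the 2 motifs did not overlap in any of them. Hormad1 has 2 windows in the table. Stra8 and Dazl held neither. Rec8 held TCCCGC and no CACGTG. Stra8 also had the fewest CpG, 10 in 300 bases with an observed to expected ratio of 0.43, which is close to the median of all windows (7 CpG and 0.38). The other 9 members had 15 to 38 CpG and ratios from 0.67 to 1.03. The direct repeat of AGGTCA spaced by any 5 bases, a binding sequence of retinoic acid receptors, was in no member window and in 3 of all windows. The deposited feature of Stra8 begins upstream of its RefSeq start, at position 34920163 of chromosome 6, so other starts of Stra8 were not covered. Both motifs, TCCCGC and CACGTG, contain a CpG, and the windows of all promoters were not matched to the members in CpG. The members were also chosen as germline genes, so their shares of the motifs are a description. A match is a description of the letters, and binding was not measured.

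Stra8 (mm10 chr6:34920163-34939342, plus strand) stood near 5 without gelatin and near 7 on gelatin. Its level was 5.30 and 5.10 at p0, 5.35 and 4.97 at Keniry2022 p10, and 5.31 and 5.43 at Keniry2022 p20. On gelatin it was 7.18 and 6.76 at p10 and 6.94 and 6.55 at p20. All 4 gelatin libraries lay above all 6 others, which is the pattern Stra8 was chosen for. The mean was 6.86 ± 0.27 (SD, n = 4) on gelatin and 5.27 ± 0.20 (SD, n = 4) in suspension, a difference of 1.59 or 3.02-fold. In reads this was 4624 to 6311 on gelatin against 1634 to 2293 in the other libraries. The library with few Y-linked reads had the higher Stra8 level in each of the 5 groups, by 0.12 to 0.41, and the difference between methods was 1.67 among the libraries with few Y-linked reads and 1.51 among those with many.

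**Figure D1:**
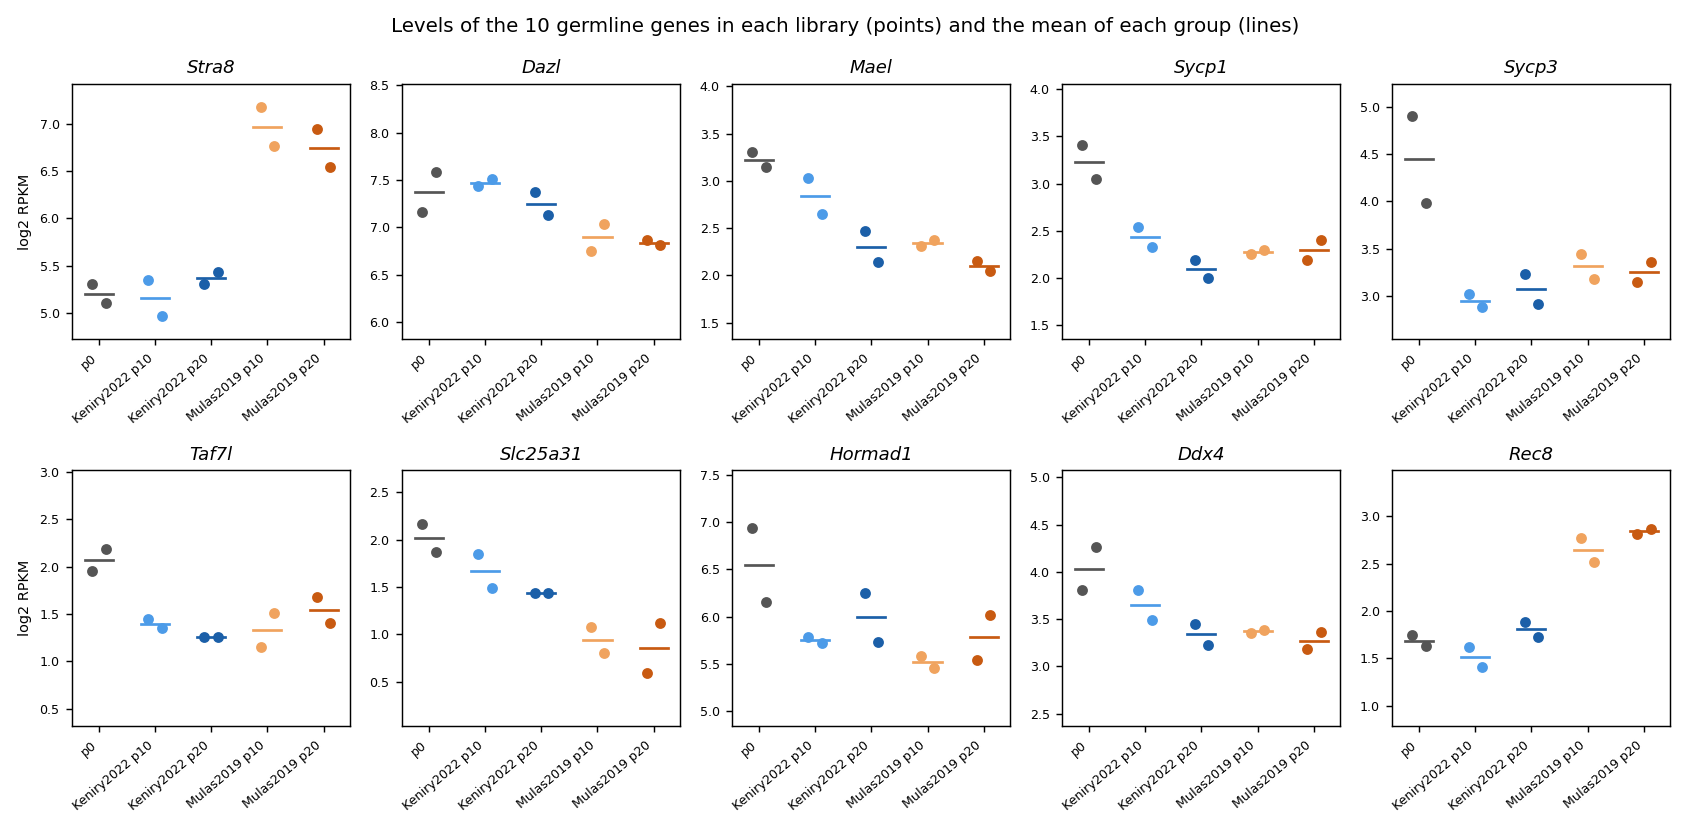
Levels of the 10 members (vertical axis, log2 RPKM) in the 5 groups (horizontal axis); each point is 1 library and each line the mean of 2. Stra8 and Rec8 are higher in all 4 gelatin libraries than in the 6 others, and Dazl and Slc25a31 are lower. The share of all features separated in this way is not given.

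Without gelatin no difference of Stra8 from p0 passed the test at either passage. From p0 it differed by -0.04 ± 0.19 (SE) at Keniry2022 p10 (adjusted p = 0.890) and by 0.17 ± 0.19 (SE) at Keniry2022 p20 (adjusted p = 0.548, limma moderated test with Benjamini-Hochberg adjustment over 11561 features, n = 2 per group). The first of these changed sign without p0 replicate 1 (0.06). Within gelatin culture p20 differed from p10 by -0.22 (unadjusted p = 0.282), less than the gap of 0.40 to 0.41 between the libraries of each group. These tests use no contrast of gelatin with other libraries.

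Rec8 (mm10 chr14:55618037-55625395, plus strand), the meiosis-specific cohesin subunit that holds sister chromatids together, followed Stra8. Its level was 1.75 and 1.62 at p0, 1.62 and 1.40 at Keniry2022 p10, 1.88 and 1.73 at Keniry2022 p20, 2.77 and 2.51 at Mulas2019 p10, and 2.82 and 2.87 at Mulas2019 p20. The lowest gelatin library was above the highest of the 6 others. Rec8 had 453 to 550 reads on gelatin and 210 to 284 elsewhere. With passages pooled it was 1.08 ± 0.11 (SE) higher on gelatin, 2.12-fold (adjusted p = 7.71e-05, limma, n = 4 libraries of 2 lines per method). It was also higher on gelatin at p10 (difference of Keniry2022 minus Mulas2019 -1.13, adjusted p = 0.00634), at p20 (-1.04, adjusted p = 0.0208) and in the groups matched in days (-0.83, adjusted p = 0.0181). Among the 9 members tested it was the only one past the threshold in each of these 3 comparisons, and 2 members passed at p10 in a fit with the replicate numbers as a block and those of Keniry2022 p20 exchanged. At p10 8.53% of 11561 features passed (3.76% with higher and 4.77% with lower values in suspension), at p20 2.15% (0.614% and 1.54%) and at matched days 6.43% (2.84% and 3.59%). Its difference between methods was 1.12 among the libraries with few Y-linked reads and 1.05 among those with many. At a stricter filter on low values Rec8 was not tested at p10, p20 or matched days, and 0 members were called. With 1 library left out, Rec8 also missed the threshold at p10 without Keniry2022 p10 replicate 1, Keniry2022 p10 replicate 2 or Mulas2019 p10 replicate 1, and at p20 and matched days without any library of the groups compared. Its difference then stayed between -1.23 and -0.71, and its pooled call held without each of the 8 libraries.

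Dazl and Slc25a31 moved the other way. Dazl, an RNA-binding protein needed by germ cells to enter meiosis, was the most abundant member without gelatin. Its level was 7.17 and 7.59 at p0, 7.43 and 7.51 at Keniry2022 p10, 7.37 and 7.13 at Keniry2022 p20, 6.75 and 7.03 at Mulas2019 p10, and 6.86 and 6.81 at Mulas2019 p20. All 4 gelatin libraries were below all 6 others, though the closest pair was 7.03 and 7.13. The pooled difference on gelatin was -0.50 ± 0.08 (SE), or 1.41-fold lower (adjusted p = 0.000872). Slc25a31, the ADP/ATP carrier of germ cell mitochondria, was at 2.17 and 1.87 at p0, 1.85 and 1.49 at Keniry2022 p10, 1.43 and 1.44 at Keniry2022 p20, 1.08 and 0.81 at Mulas2019 p10, and 0.60 and 1.12 at Mulas2019 p20. It was 0.65 ± 0.14 (SE) lower on gelatin (difference -0.65, adjusted p = 0.00303), and again the gelatin libraries were below all others.

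In all, 4 of the 9 members tested passed in the pooled comparison, 2 higher on gelatin (Rec8 and Sycp3) and 2 lower (Dazl and Slc25a31). In that comparison 51.5% of 11654 features passed, 25.9% lower and 25.5% higher on gelatin, so this share of members is below the background. The median difference of the 9 members, gelatin minus suspension, was -0.18, and that of all features was 0.0029. The share of all features whose gelatin libraries did not overlap with the others is not given. Such separation of single genes is therefore a description.

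**Figure D2:**
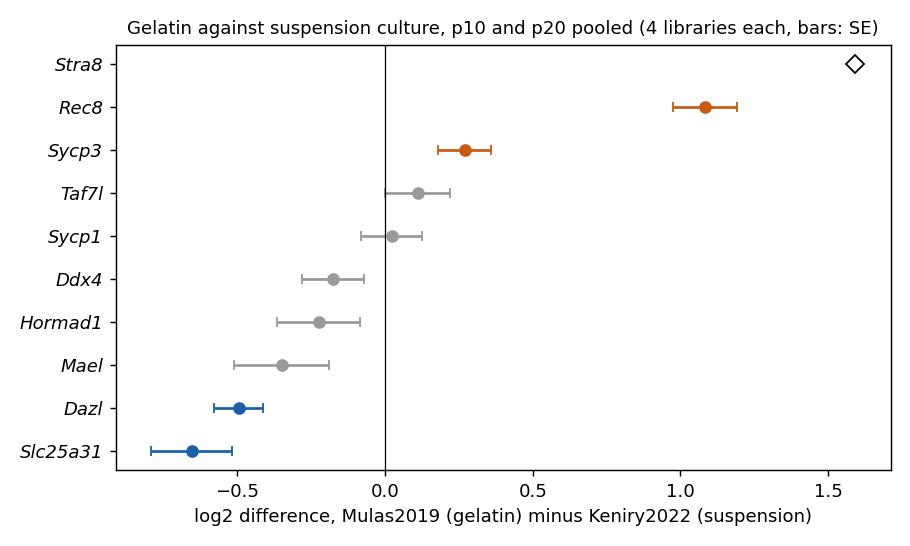
Difference of each member between methods (horizontal axis, log2, gelatin minus suspension) with its SE; 4 libraries per method. Stra8 (open diamond, 1.59, not tested) and Rec8 (1.08) stand to the right, Dazl (-0.50) and Slc25a31 (-0.65) to the left, and grey points did not pass an adjusted p of 0.05.

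Sycp3, a core protein of the meiotic chromosome axis, was at 4.91 and 3.98 at p0, 3.02 and 2.88 at Keniry2022 p10, 3.24 and 2.92 at Keniry2022 p20, 3.45 and 3.18 at Mulas2019 p10, and 3.15 and 3.36 at Mulas2019 p20. Its pooled difference on gelatin was 0.27 ± 0.09 (SE, adjusted p = 0.0293), and the libraries of the methods overlapped. The call was lost in the model of all 5 groups (adjusted p = 0.350), without a filter (0.0523) and without any of 5 of the 8 libraries in turn. Sycp3 shares 660 of its 1264 exon bases with Chpt1 on the other strand. The strand setting of the counting is not given in the sources used here, so reads of the pair may not be separable. Chpt1 was also higher on gelatin, by 0.29 (difference of Keniry2022 minus Mulas2019 -0.29, adjusted p = 0.00558).

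The other 5 members did not pass between methods. Mael, a factor of the piRNA pathway, which silences transposons in germ cells, differed by -0.35 ± 0.16 (SE, adjusted p = 0.0899) on gelatin, and its level ran from 2.14 to 3.03 in suspension and from 2.05 to 2.38 on gelatin. Ddx4, the RNA helicase known as the Vasa homologue, differed by -0.18 ± 0.10 (adjusted p = 0.183) and ran from 3.23 to 3.81 and from 3.18 to 3.39. Hormad1, a meiotic axis protein that monitors synapsis, differed by -0.23 ± 0.14 (adjusted p = 0.203) and ran from 5.72 to 6.25 and from 5.45 to 6.02. Taf7l, a germ cell paralogue of a TFIID subunit on chromosome X, differed by 0.11 ± 0.11 (adjusted p = 0.426) and ran from 1.25 to 1.45 and from 1.15 to 1.68. All 5 overlapped between the methods. Sycp1, the transverse filament of the synaptonemal complex, differed by 0.02 ± 0.10 (adjusted p = 0.873), from 2.01 to 2.54 in suspension and from 2.19 to 2.40 on gelatin. After quantile normalization Taf7l and Sycp1 were instead higher in suspension, by 0.035 and 0.061. With passage as a term Mael also passed (adjusted p = 0.0183).

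The order of the members by level shows the same split. At p0 and in both Keniry2022 groups the order was Dazl, Hormad1 and then Stra8. At Mulas2019 p10 Stra8 was first at a mean of 6.97 and Dazl second at 6.89, and at p20 Dazl was first at 6.84 and Stra8 second at 6.75, differences smaller than the SD of Stra8 between replicates (0.29 and 0.28). Rec8 was the last of the 10 members at p0 (1.69) and the sixth in both gelatin groups (2.64 and 2.84), above Mael and Sycp1. Slc25a31 was last in both gelatin groups (0.94 and 0.86).

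Over all 10 libraries the Pearson r of Rec8 with Stra8 was 0.96, and no other member had a positive r. It was -0.90 for Dazl, -0.83 for Slc25a31, -0.64 for Mael, -0.59 for Ddx4, -0.53 for Hormad1, -0.39 for Sycp1, -0.27 for Taf7l and -0.16 for Sycp3. Among 11550 other features tested, each name counted once, r had a median of 0.04 and 5th and 95th percentiles of -0.84 and 0.85, and 22 features had a higher r than Rec8. Spearman's rho of Rec8 was 0.78, under the 95th percentile of rho (0.83). These values describe 10 libraries that share lines, 4 of which chose Stra8, and carry no p.

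**Figure D3:**
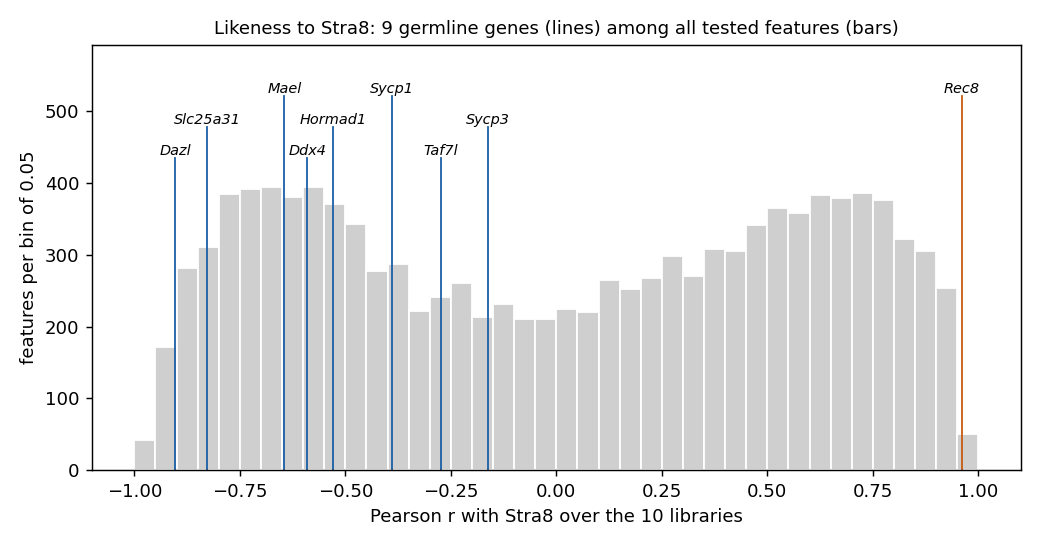
Pearson r with Stra8 over the 10 libraries (horizontal axis) for all other features tested (bars, features per bin of 0.05) and for the 9 members (lines). Rec8 lies at 0.96, at the right edge of the distribution, and the other 8 members lie between -0.90 and -0.16.

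The likeness of Rec8 was lower where gelatin was taken out of the comparison. Over the 6 libraries without gelatin r was 0.74, above the 95th percentile of all features (0.48), and after the group means were removed it was 0.60, under the 95th percentile (0.64). Dazl had r of -0.76 and -0.59 in these settings, and the 5th percentiles were -0.42 and -0.61. For Slc25a31, whose r over 10 libraries was -0.83, the values were 0.03 and 0.18. Among features with a mean level of at least 3, those most like Stra8 were Dhrs7 (0.98), Por (0.98), Klf10 (0.98), Dhcr7 (0.97) and Gys1 (0.97). Those most opposite were Zfp459 (-0.98), Acadm (-0.98) and Mki67ip (-0.98).

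Compared with the starting cells, 8 members fell on gelatin by p10 while Rec8 rose. At Mulas2019 p10 all 9 members tested passed, 1 higher and 8 lower, where 33% of 11561 features passed (15.7% higher and 17.3% lower). Rec8 rose by 0.95 ± 0.13 (SE, adjusted p = 0.00756). Sycp3 fell by 1.13, Slc25a31 by 1.08 (-1.08), Hormad1 by 1.03 (-1.03), Sycp1 by 0.95 (-0.95), Mael by 0.88 (-0.88), Taf7l by 0.73 (-0.73), Ddx4 by 0.66 (-0.66) and Dazl by 0.48 (-0.48), with adjusted p from 0.0103 to 0.0495. At Mulas2019 p20 8 of 9 passed, 1 higher and 7 lower (29.3% of features, 14.7% higher and 14.6% lower). Rec8 rose by 1.16 ± 0.13 (SE, adjusted p = 0.00753) and Mael fell by 1.12 (-1.12, adjusted p = 0.00989). Hormad1 differed by -0.76 (adjusted p = 0.0684). Stra8, not tested here, was 1.77 and 1.54 above p0 at the 2 passages.

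In suspension the same 8 members had lower means than p0 at p20, and most did not pass. For Dazl the sign of this difference (-0.13) turned after quantile normalization (0.046). The fall by p20 was larger in suspension than on gelatin for Sycp1 (-1.13 against -0.93), Sycp3 (-1.37 against -1.19) and Taf7l (-0.81 against -0.53). It was smaller in suspension for the others. At Keniry2022 p10 Sycp3 differed from p0 by -1.50 (adjusted p = 0.0935). At Keniry2022 p10 0 of 10 members passed and 5 had an unadjusted p under 0.05, where 0.199% of features passed (0.0432% higher and 0.156% lower). Limma-voom on recovered reads also called 0 members. At Keniry2022 p20 1 of 10 passed (0.199% of features, 0.0519% higher and 0.147% lower), Sycp1 with -1.13 ± 0.15 (SE, adjusted p = 0.0488), and 6 had an unadjusted p under 0.05. That call was lost without any 1 library of the 8 cultured ones, and with a stricter filter, no filter, library weights, voom or a replicate block. Sycp3 differed by -1.37 (adjusted p = 0.0956), Mael by -0.92 (adjusted p = 0.0723), Taf7l by -0.81 (adjusted p = 0.0956) and Ddx4 by -0.69 (adjusted p = 0.117). Rec8 differed by 0.12 (adjusted p = 0.532). The median difference of the 9 members without Stra8 was -0.88 and -0.76 at the Mulas2019 passages and -0.38 and -0.69 at the Keniry2022 passages, against 0.0054, 0.034, 0.0017 and 0.0042 for all features. The comparisons with p0 share the p0 libraries, so their values are set side by side and not as separate evidence.

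**Figure D4:**
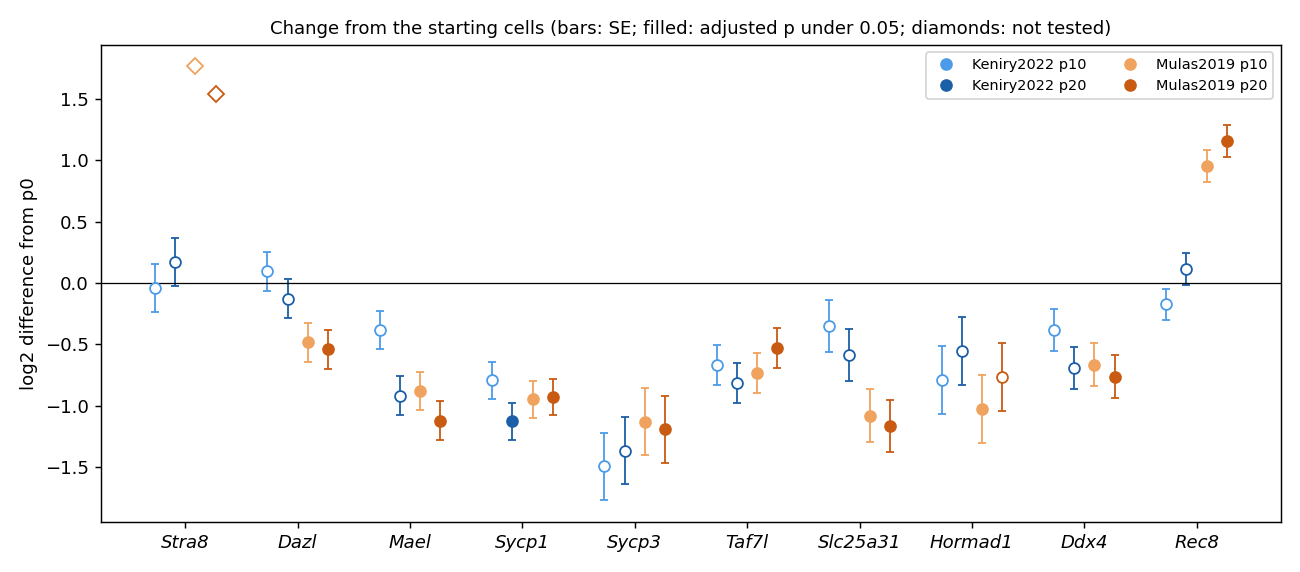
Difference of each member from p0 (vertical axis, log2, with SE) for the 4 cultured groups; 2 libraries per group, filled circles passed an adjusted p of 0.05, and diamonds (Stra8 on gelatin) were not tested. Rec8 lies above 0 on gelatin, and Mael, Sycp1, Sycp3, Taf7l, Slc25a31, Hormad1 and Ddx4 lie below 0 in all 4 groups.

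These values rest in part on p0 replicate 1, and on single gelatin libraries. The gap between the p0 libraries was widest for Sycp3 (4.91 and 3.98) and Hormad1 (6.94 and 6.15), both with exons under 2000 bases. Without p0 replicate 1 Sycp3 differed from p0 by -0.67 at Mulas2019 p10 and by -0.90 at Keniry2022 p20, and Hormad1 by -0.63 and -0.16. Most members still passed at both Mulas2019 passages in that fit. More passed at Keniry2022 p10 (Sycp1, Sycp3, Taf7l and Ddx4) and at Keniry2022 p20 (the same 4 and Mael). Calls over all features also rose in each of these comparisons. Without either replicate of a Mulas2019 group, most or all calls of members against p0 at that passage were lost. Most calls over all features were lost in the same fits, so the loss was not particular to the members.

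Between p10 and p20 of 1 method 0 of 10 members passed, on gelatin or in suspension (0% of features by limma, with 772 and 289 features at an unadjusted p under 0.05). Limma-voom called 1 feature on gelatin and 0 in suspension, and no member. Members with an unadjusted p under 0.05 numbered 0 on gelatin and 1 in suspension. The difference between methods did not pass a test of change from p10 to p20 for any feature (0 called, 405 at an unadjusted p under 0.05), and for Rec8 that change was 0.09 (unadjusted p = 0.637).

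Genes of the retinoic acid pathway were split. Of 21 genes listed 10 were tested, and 2 were higher and 2 lower on gelatin. The share called, 4 of 10, is not above that of all features (51.5%). The median difference, gelatin minus suspension, was -0.03. Rara, the receptor alpha, was higher by 0.49 (adjusted p = 0.000140) and Crabp1, a cellular retinoic acid binding protein, by 0.51 (adjusted p = 0.000361), though the gelatin libraries of both overlapped with p0. Rarg, the receptor gamma and the most abundant gene of the list, was lower by 0.45 (-0.45, adjusted p = 0.00138), and Crabp2 by 0.54 (-0.54, adjusted p = 0.0118). The gelatin libraries of Rarg (4.18 to 4.53) lay below all others (4.59 to 4.90), and those of Crabp2 overlapped with suspension.

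Of the 11 genes of the list under the filter on low values, 3 that were higher in all 4 gelatin libraries were chosen after their values were seen. Rarb, a receptor and itself a target, had 59 to 90 reads on gelatin and 16 to 46 elsewhere. Stra6, the receptor for retinol uptake, had 48 to 90 and 16 to 25. Cyp26a1, which degrades retinoic acid, had 4 to 7 and 0 to 2, too few for a fold. As they were chosen for these values, no test is given. The other untested genes of the list overlapped between gelatin and the rest, though some leaned higher than in suspension. Cyp26b1 had 12 to 23 reads on gelatin, 5 to 12 in suspension and 6 to 9 at p0. Aldh1a3 had 12 to 21 on gelatin, 3 to 16 in suspension and 15 to 21 at p0. Meis1 had 12 to 26 on gelatin, 10 to 17 in suspension and 16 to 20 at p0. Tgm2 had 87 to 119 reads on gelatin and 77 to 119 in suspension. Cyp26c1 had 0 to 2 reads on gelatin and 1 to 5 in suspension. Retinoic acid itself was not measured, and its part in the level of Stra8 was not tested.

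**Figure D5:**
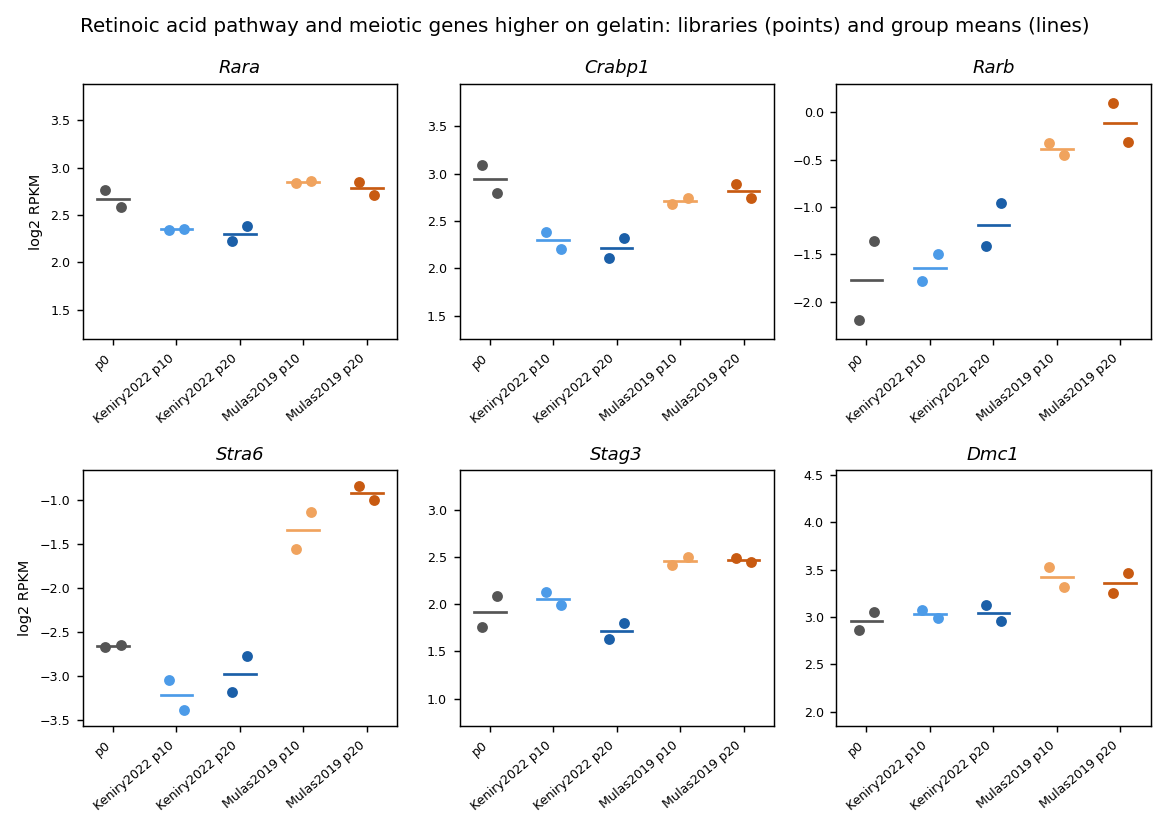
Levels (vertical axis, log2 RPKM) of 4 retinoic acid pathway genes and of the meiotic genes Stag3 and Dmc1 in the 5 groups (horizontal axis); each point is 1 library and each line the mean of 2. Rarb, Stra6, Stag3 and Dmc1 are higher in all 4 gelatin libraries than in the 6 others, and Rara and Crabp1 overlap with p0. The share of all features separated in this way is not given. Rarg and Crabp2, which were lower on gelatin, are not shown.

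Other genes of meiosis were followed by list, against 25.5% of all features called higher and 25.9% called lower on gelatin. Of 10 genes of the synaptonemal complex and meiotic cohesin found, 6 were tested, 3 higher and 1 lower on gelatin. Stag3, the partner of Rec8 in meiotic cohesin, was higher by 0.57 ± 0.10 (SE, adjusted p = 0.000944), from 2.41 to 2.50 on gelatin and from 1.63 to 2.13 elsewhere. The HORMA protein Hormad2 was higher by 0.21 (adjusted p = 0.0149) and 4930447C04Rik, the synaptonemal complex protein also known as SIX6OS1, by 0.40 (adjusted p = 0.0159). Syce1, of the central element, was lower by 0.49 (-0.49, adjusted p = 0.000429). Syce2 was the most abundant of the list and differed by -0.0072 (adjusted p = 0.958).

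Of 16 genes of meiotic recombination found 8 were tested, 2 higher (Mei4 among them) and 2 lower on gelatin. Dmc1, the meiotic recombinase, was higher by 0.35 (adjusted p = 0.00204) and Mei4, needed for meiotic DNA breaks, ran from 0.23 to 0.89 on gelatin and from -0.23 to 0.05 in suspension. Psmc3ip, a partner of the recombinase, was lower by 0.40 (-0.40, adjusted p = 0.000545) and Tex15 by 0.51 (-0.51, adjusted p = 0.00540). The most abundant was Hsf2bp, with a difference of -0.0024 (adjusted p = 0.977). Of 9 genes of meiotic initiation found 6 were tested. Dmrtb1, which acts in the switch from mitosis to meiosis, ran from 0.09 to 0.42 on gelatin and from -0.81 to -0.31 in suspension. It passed the filter on low values through its gelatin libraries alone, and Mei4 largely so, and no test is given for them. Tcfl5 was lower by 0.21 (-0.21, adjusted p = 0.0278). Mybl1 differed by 0.20 (adjusted p = 0.0739), Dmrt1 by 0.49 (adjusted p = 0.0748), and Sohlh2, the most abundant, differed by 0.27 (adjusted p = 0.0943). The partner of Stra8, listed in the table as Gm4969, had 1 to 18 reads in all libraries and was not tested.

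Of 17 genes of the piRNA pathway found 11 were tested, 5 lower and 0 higher on gelatin, against 25.9% and 25.5% of all features, with a median difference of -0.18. The 5 were Tex19.1 (-0.51, adjusted p = 3.64e-05), Stk31 (-0.58, adjusted p = 0.000119), Rnf17 (-0.18, adjusted p = 0.0104), Gtsf1 (-0.30, adjusted p = 0.0142) and Fkbp6 (-0.32, adjusted p = 0.0171). Tdrd12, the most abundant, differed by -0.15 (adjusted p = 0.114). Of 17 other germline genes with CpG-rich promoters 12 were tested, 4 lower and 2 higher (Xlr3a and Ldhc). Tuba3b (-0.73) and Tuba3a (-0.28), germline alpha-tubulins, were lower, as were Usp26 (-0.33, adjusted p = 0.0112) and Rpl10l, the most abundant (-0.35, adjusted p = 0.0211), and Xlr3a was higher (0.28, adjusted p = 0.0104). Tuba3a, Tuba3b, Xlr3a and Rpl10l have close copies, so their counts are uncertain. Over these 5 germline lists together 43 of 69 genes were tested, 8 higher (Dmrtb1, Mei4 and Ldhc among them) and 13 lower on gelatin. The median difference was -0.0024 against 0.0029 for all features. That is 21 of 43 called, against 51.5% of all features. Ldhc ran from 0.28 to 0.77 on gelatin and from -0.27 to 0.27 in suspension. Like Dmrtb1 and Mei4, it passed the filter on low values with the help of its gelatin libraries. The counts that hold these genes are therefore a description.

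Of 23 listed factors that repress germline genes all were tested, 12 lower and 2 higher on gelatin, with a median of -0.11. The share called, 14 of 23, stands beside 51.5% of all features, of which 25.9% were lower. Lower were Hdac2 (-0.42, adjusted p = 4.73e-05), the DNA methyltransferase genes Dnmt3b (-0.78, adjusted p = 0.000100), Dnmt3l (-0.75) and Dnmt3a (-0.33), and the PRC1.6 genes L3mbtl2 (-0.31, adjusted p = 0.000248), Rnf2 (-0.27, adjusted p = 0.000178), Pcgf6 (-0.15) and Max (-0.12). Trim28 was the most abundant (-0.30, adjusted p = 0.000750). The gelatin libraries of Dnmt3b, Dnmt3l, Dnmt3a and L3mbtl2 overlapped with p0, and their suspension libraries lay above both. Dnmt3b ran from 4.14 to 4.31 at p0, 4.21 to 4.48 on gelatin and 4.94 to 5.22 in suspension. On gelatin Hdac2 (5.46 to 5.59) and Rnf2 (5.59 to 5.66) lay below p0 (6.34 to 6.59 and 5.97 to 6.10). All suspension libraries of both genes also lay below p0, though above gelatin, so lower levels than at p0 were seen under both methods. Rybp (0.18) and Yaf2 (0.25), also of PRC1.6, were higher on gelatin than in suspension. Mga (0.10, adjusted p = 0.0684) and E2f6 (0.03, adjusted p = 0.675) did not pass. Of 9 genes tested of primordial germ cell specification, 3 were higher on gelatin, Kit (0.36, adjusted p = 0.000278), Alpl (0.34, adjusted p = 0.000486) and Tfap2c (0.33, adjusted p = 0.0202), and Ifitm3 was lower (-0.39, adjusted p = 0.00761). The part of these genes in the levels of the members was not tested.

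Genes beside Stra8 were also examined, to see whether the change was shared along chromosome 6. Wdr91 was higher on gelatin by 0.41 (difference of Keniry2022 minus Mulas2019 -0.41, adjusted p = 0.000145), Cald1 differed by -0.37 in the same direction of subtraction (adjusted p = 0.0816), and Cnot4 and Nup205 differed by -0.04 and 0.0042 (adjusted p = 0.568 and 0.950). Beside Rec8, Irf9 was 0.16 higher under Keniry2022 (adjusted p = 0.0317) and Ipo4 differed by 0.11 (adjusted p = 0.0637), in the direction opposite to Rec8.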

How the data were processed

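RNA-seq of 10 libraries, 2 in each of 5 groups, was analysed from 1 deposited table. Per the study, the authors aligned single-end reads to mm10 with HISAT2 and quantified them in SeqMonk. TopHat2 2.0.12 and bcl2fastq are listed in the processing notes of the submitters, so the aligner is not settled here. The deposited log2 values are named as log CPM. They were read as log2 RPKM, since the floor given to a feature without reads (0.9 reads) shifts with exon length. Library totals and whole reads were worked out from these floors, and 100% of the recovered values lay within 0.1 reads of a whole number. For 15661 features the length came from a search for whole reads, so this is no check for them.

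Features with a log2 value above 0 in at least 50% of the libraries of a fit were tested with limma 3.58.1 (moderated test with trend, two-sided, Benjamini-Hochberg adjustment, threshold 0.05). The methods were compared with passages pooled (8 libraries), and all other comparisons used 1 model of 5 groups. Libraries of a group stand for the 2 lines, and p-values measure the spread between these libraries. In the pooled comparison the libraries of a method are the 2 lines at p10 and p20, fitted as if independent. Its n counts libraries and not lines, and its p-values treat repeated samples of a line as replicates. The study notes that 1 line lost its Y chromosome during derivation. Samples with the same replicate number did not deviate together at Keniry2022 p20 (correlations of replicate differences with other groups from -0.70 to -0.12, against 0.17 to 0.63 among the others), so the number was not used as a block.

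Named genes were all 10 members, the 5 features most like Stra8 and the 3 most unlike it with a mean log2 of at least 3, and from each list up to 4 tested genes with the smallest p and the most abundant one, and marker lists by their defining genes. A gene of the retinoic acid list is not reported here. Other genes of the lists were named after their values were seen. The members and lists were chosen with earlier results of these data known. Alternatives were other filters, quantile normalization, median centring, an added 1 before the log, no trend, library weights, limma-voom on recovered reads, a replicate block, passage as a term, Spearman's rho and leaving out each library.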

Additional observations from a re-analysis of the deposited data

Results flagged for a closer look

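Each member was checked for a library far from the other 3 of its method, which made 20 checks, and chance flags about 1 in 20. Slc25a31 in suspension had a gap of 0.858 of the whole range (critical value 0.829), because Keniry2022 p10 replicate 1 was at 1.85 and the others between 1.43 and 1.49. Hormad1 in suspension had a gap of 0.875, because Keniry2022 p20 replicate 1 was at 6.25 and the others between 5.72 and 5.79. Leaving libraries out in turn kept the pooled difference of Slc25a31, Keniry2022 minus Mulas2019, between 0.55 and 0.73, and that of Hormad1 between 0.10 and 0.35.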

How the results depend on the processing

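Differences here are Keniry2022 minus Mulas2019, or culture minus p0. In the pooled comparison 3 to 5 members were called under the alternatives, of 9 tested or, with a filter at 2, of 7, and 3 to 5 with a library left out. Rec8, Dazl and Slc25a31 kept their pooled calls in each in which they were tested, though Rec8 passed the filter at 2 through its gelatin libraries alone. With a filter at 2, members called fell to 0 at p10, 0 at p20, 0 at matched days and 5 at Mulas2019 p20 against p0, where 6 members were tested and Rec8 was not among them, and to 0 at Keniry2022 p20 against p0, where Sycp1 was tested and missed the threshold (adjusted p = 0.0774). Library quality weights gave 5 at p10, 3 at p20, 2 at matched days and 0 in each of Mulas2019 p10, Mulas2019 p20 and Keniry2022 p20 against p0. Of all 11561 features these weights called 5880 at p10, 4079 at p20 and 4623 at matched days. They called 0 features in each of these comparisons against p0. The cause was not tested. Keniry2022 p20 against p0 also had 0 with no filter, with voom and with the replicate block. The replicate numbers pair no samples by the labels, and with the block 4 members were called in the pooled comparison, 8 at Mulas2019 p10 and 7 at Mulas2019 p20 against p0, where Dazl (adjusted p = 0.0552) and Taf7l (adjusted p = 0.0581) were lost. It changed no other count of members. A crossed pairing, added after seeing the data with the numbers of Keniry2022 p20 exchanged, gave 2 at p10, 7 at Mulas2019 p20 against p0 and 0 at Keniry2022 p20 against p0.

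With 1 library left out the counts ran from 0 to 5 at p10, 0 to 3 at p20, 0 to 2 at matched days, 0 to 8 for both Mulas2019 passages against p0, 0 to 5 at Keniry2022 p10 against p0 and 0 to 7 at Keniry2022 p20 against p0. Where a group kept 1 library, it was assumed to vary like the other groups. Leaving out Keniry2022 p10 replicate 1 or 2 or Mulas2019 p10 replicate 1 ended calls at p10 (0), any library of Keniry2022 p10, Keniry2022 p20 or Mulas2019 p20 ended those at p20 (0), and any of Keniry2022 p20, Mulas2019 p10 or Mulas2019 p20 ended those at matched days (0). Leaving out either p0 library raised the counts at p10, p20 and matched days, and calls over all features rose there too. In the fits that ended calls of members, calls over all features fell as well.

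The sign changed after quantile normalization for Sycp1 (0.061) and Taf7l (0.035) in the pooled comparison, for Stra8 at Keniry2022 p10 against p0 (0.036) and for Dazl at Keniry2022 p20 against p0 (0.046), and with library weights for Sycp1 (0.012). None of these passed the test. With 1 library left out, the pooled difference of Sycp1 ran from -0.11 to 0.065, Stra8 at Keniry2022 p10 against p0 from -0.23 to 0.14, and Dazl against p0 from -0.12 to 0.30 at Keniry2022 p10 and from -0.34 to 0.084 at Keniry2022 p20. By Spearman's rho 0 of 9 members were above the 95th percentile of likeness to Stra8, against 1 (Rec8) by Pearson's r, and Sycp3 turned to 0.030. Its r ran from -0.31 to 0.087 and that of Rec8 from 0.95 to 0.98 with a library left out.

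With 2 libraries per group, calls against p0 change with single libraries. Low genes such as Cyp26a1 are limited by counting.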
